A study of Mus musculus with 4 samples.

Results

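Dopamine in the mouse retina was examined here through 9 genes of its receptors, synthesis, transport and breakdown. They are the receptor genes Drd4, Drd2 and Drd5, the synthesis genes Th, Ddc and Gch1, the transporter genes Slc6a3 and Slc18a2, and the oxidase gene Maob. Each was taken by its symbol from a deposited table of 23336 genes, and all 9 were present. RNA had been sequenced from whole retina at postnatal day 8 in wild-type littermates (WT, 2 libraries) and in Opn4-DTA/DTA mice (2 libraries), all on the C57/Bl6 background. In Opn4-DTA/DTA mice the diphtheria toxin A chain sits at both Opn4 alleles, so the locus of this melanopsin gene drives the toxin. Intrinsically photosensitive ganglion cells are the retinal cells that make melanopsin, and loss of these cells and loss of melanopsin itself cannot be told apart in this design. The labels call the tissue dissociated cells, and the text on the design speaks of whole extracts.

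Dopamine is made in the retina by a sparse class of amacrine cells. Tyrosine hydroxylase (Th) turns tyrosine into L-DOPA with the help of tetrahydrobiopterin, whose synthesis starts with GTP cyclohydrolase (Gch1), and aromatic amino acid decarboxylase (Ddc) turns L-DOPA into dopamine. The vesicular monoamine transporter (Slc18a2) loads it into vesicles, and the plasma membrane dopamine transporter (Slc6a3) takes it back up. Monoamine oxidase B (Maob) is among the enzymes that can break dopamine down. Receptors of the D1 class, among them Drd5, raise cyclic AMP, and those of the D2 class, among them Drd2 and Drd4, lower it. Photoreceptors express Drd4, Drd2 also serves as an autoreceptor of dopamine cells, and melanopsin cells are known to signal to dopaminergic amacrine cells in the adult retina.

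Total counts ranged from 22202382 to 60833968 per library. The table holds the authors' group means of normalized counts, from which the whole counts of both libraries of a group were recovered. Within a group, library a is the one with the larger size factor and library b the remaining one, since neither could be tied to a sample label. Values are normalized counts per library, or mean ± SD with n = 2 per group. Whether a group's libraries came from separate animals is not in the labels. The p-values rest on the spread of a gene between these libraries, combined with that of other genes of similar level. For WT this spread may be technical. Opn4 had 369 and 161 counts in the WT libraries and 1 and 0 in the Opn4-DTA/DTA libraries. The Y-linked gene Ddx3y was at 0 in 3 libraries and at 4178 normalized counts in library a of Opn4-DTA/DTA. Sex therefore differed between the Opn4-DTA/DTA libraries, which did not come from the same animal, and between Opn4-DTA/DTA library a and both WT libraries, and its part in the values below was not tested.

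Drd4, the D2-class receptor gene of photoreceptors, had lower values in both Opn4-DTA/DTA libraries than in either WT library. The WT libraries a and b stood at 362 and 300.0, from 312 and 196 counts. The Opn4-DTA/DTA libraries a and b stood at 121 and 178, from 221 and 174 counts. The groups did not overlap, and the smallest gap, between WT library b and Opn4-DTA/DTA library b, was 1.69-fold. WT library a and Opn4-DTA/DTA library a were farthest apart, at 3.0-fold. The group means were 331 ± 43.9 and 149 ± 40.6, which is 2.22-fold lower in Opn4-DTA/DTA. Among all 15003 tested genes 0.213% had a mean at least 2-fold lower. In whole retina, fewer cells that express a gene and less of its RNA per cell cannot be told apart. The summed levels of 12 rod markers and 12 cone markers in Opn4-DTA/DTA were 0.887 and 0.943 times those in WT. The part of photoreceptor number in the values of Drd4 was not tested.

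In limma, a linear model fitted to log2(normalized count + 1) of all tested genes, Drd4 did not pass the threshold of an adjusted p of 0.05. Its fitted log2 fold change was -1.16 (SE 0.22, 95% interval -1.68 to -0.64), with an unadjusted p of 0.00101 and a limma adjusted p of 0.9997. Drd4 ranked 9 of 15003 by p, and 3 genes (0.02%) passed, 1 higher (0.00667%) and 2 lower (0.0133%). In the authors' deposited table Drd4 passed with an adjusted p of 0.00344 and a log2 fold change of -0.30, smaller in size than the ratio of its group means gives, as did 17 genes in all (0.113%), 8 of them lower (0.0533%). The submitters also placed Drd4 on a sheet of 6 cone-specific candidates, chosen on these same libraries, so this listing is not independent evidence. The limma call changed with single libraries. Without WT library a Drd4 passed with a limma adjusted p of 0.0261, where 2.04% of all tested genes passed and 0.807% passed as lower. Without WT library b its limma adjusted p was 0.00447, where 1.58% passed and 0.693% as lower. Without library b of Opn4-DTA/DTA it was 0.00332, where 0.127% passed and 0.0667% as lower. Without library a of Opn4-DTA/DTA Drd4 did not pass (log2 fold change -0.88, unadjusted p = 0.00395), where 0.0667% passed and 0.0533% as lower.

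The libraries of a group differed in Drd4 beyond counting error. Opn4-DTA/DTA library b had 1.48 times the rate of library a (exact 95% interval 1.20 to 1.81, counting error only). WT library a had 1.21 times the rate of WT library b (1.01 to 1.45). With the counts of a group summed, the WT rate was 2.38 times that of Opn4-DTA/DTA (exact 95% interval 2.09 to 2.73), an interval that leaves out the spread between libraries.

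Rod markers, from the commonest photoreceptors, were also lower on average in Opn4-DTA/DTA, and none passed. All 12 rod markers had log2 fold changes below 0, with a median of -0.20, against a median of 0.00 over all tested genes. Their summed level was 666867 and 570156 in the WT libraries and 541782 and 555981 in the Opn4-DTA/DTA libraries. Lower values were not particular to rod markers, as all 11 bipolar markers were below 0 too, with a median of -0.22. Of 11 ganglion cell markers 10 were above 0, but the values of the groups did not overlap for only 1 of them. The summed level of these ganglion cell markers was 63882 and 39585 in the WT libraries. In the Opn4-DTA/DTA libraries, at 52762 and 52764, it lay between the WT values. Per 100000 summed rod marker counts, Drd4 stood at 54.3 and 52.6 in the WT libraries and at 22.3 and 32.0 in the Opn4-DTA/DTA libraries. The WT mean was 1.97 times the Opn4-DTA/DTA mean on this scale. Of 12 cone markers 7 were below 0, and the cone arrestin gene Arr3 alone passed, in the upper direction. Per 100000 summed cone marker counts, the level of Drd4 was 952 ± 89.2 (WT) and 459 ± 137 (Opn4-DTA/DTA).

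**Figure D1:**
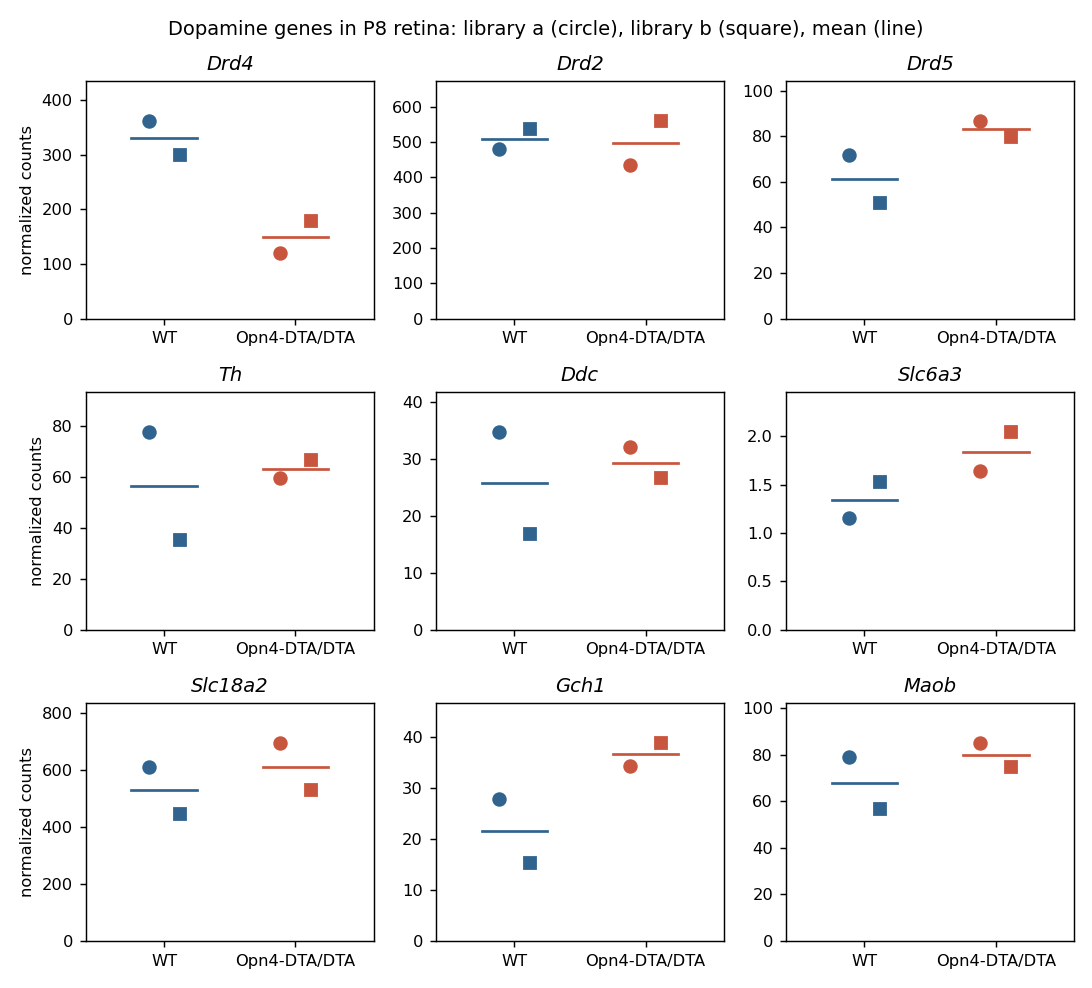
Normalized counts (vertical axis, from 0, scaled for each gene) of the 9 dopamine genes in WT (blue) and Opn4-DTA/DTA (red), with library a as a circle, library b as a square and the group mean as a line. Drd4 is lower in both Opn4-DTA/DTA libraries, at 121 and 178 against 362 and 300.0, whereas Th, Ddc, Slc18a2, Maob and Drd2 overlap between the groups.

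Drd4 lies on chromosome 7 from 141292006 to 141295001 on the plus strand (mm10) and has at most 4 exons in a GENCODE transcript. No other annotated gene overlaps it. RefSeq promoter windows, from 250 bases before the start of transcription to 50 after it, were at hand for 8 of the 9 genes. They are shown for Drd4, the gene with the lowest unadjusted p of the 8 tested, and for Th and Slc18a2, whose windows hold the same cyclic AMP response element. The build is GRCm38.p6, the assembly behind mm10, each window is written along the strand of its gene, and capitals mark the motifs found.
Drd4 (chr7:141291768-141292067, plus strand): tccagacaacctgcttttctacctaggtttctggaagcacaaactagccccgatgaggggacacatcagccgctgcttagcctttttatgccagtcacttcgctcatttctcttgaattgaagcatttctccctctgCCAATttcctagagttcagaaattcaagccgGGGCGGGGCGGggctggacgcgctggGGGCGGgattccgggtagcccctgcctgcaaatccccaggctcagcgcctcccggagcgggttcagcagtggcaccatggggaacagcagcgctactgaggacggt
Th (chr7:142899946-142900245, minus strand): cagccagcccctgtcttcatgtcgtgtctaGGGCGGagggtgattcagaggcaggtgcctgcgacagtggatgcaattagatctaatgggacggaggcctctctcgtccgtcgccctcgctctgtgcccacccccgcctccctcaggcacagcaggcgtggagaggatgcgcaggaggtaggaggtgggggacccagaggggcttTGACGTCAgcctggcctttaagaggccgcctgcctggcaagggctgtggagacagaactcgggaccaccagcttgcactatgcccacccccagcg
Slc18a2 (chr19:59260628-59260927, plus strand): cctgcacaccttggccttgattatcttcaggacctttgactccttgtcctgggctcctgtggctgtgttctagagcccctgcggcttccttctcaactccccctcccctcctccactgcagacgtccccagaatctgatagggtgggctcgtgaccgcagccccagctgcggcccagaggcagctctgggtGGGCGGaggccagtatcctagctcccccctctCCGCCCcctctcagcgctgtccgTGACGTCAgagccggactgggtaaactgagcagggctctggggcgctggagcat

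In the Drd4 window the capitals are 1 CCAAT box (CCAAT) and 3 GC boxes (GGGCGG), the first 2 of which share a base. GC boxes occur in 35.7% of 32851 RefSeq promoter windows of the same length and CCAAT boxes in 37.4%, on either strand. The core motif of the photoreceptor factors CRX and OTX2 (TAATCC, 7.06% of windows) and a core site of the rod factor NRL (TGCTGAC, 4.67%) were not among the letters of this window. Th and Slc18a2 each hold the palindrome TGACGTCA, which 1.79% of all windows hold. It starts 45 bases before the transcription start in Th and 4 bases before it in Slc18a2. The other capitals are GC boxes, 1 in Th and 2 in Slc18a2, the latter on opposite strands. E-boxes (CACGTG, 7.15%), TATA boxes (TATAAA, 13.6%) and the binding element of nuclear receptor NR4A2 (AAAGGTCA, 1.51%) were also searched. None was in the 3 windows shown. Among the windows not shown, an E-box was in that of Slc6a3. TATA boxes were in windows of Ddc and Gch1, and the NR4A2 element was in a window of Ddc. Such matches describe the letters only.

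Drd2, the gene of the receptor that also serves as autoreceptor, had overlapping values in the groups. It stood at 480 and 537 in the WT libraries and at 435 and 561 in the Opn4-DTA/DTA libraries. The Opn4-DTA/DTA libraries enclosed both WT values. Means were 509 ± 40.1 and 498 ± 89.2, and the fitted log2 change was -0.04 (SE 0.16, limma adjusted p = 0.9997). The 95% interval of the fold change ran from 0.749 to 1.26. The 2 Opn4-DTA/DTA libraries differed beyond counting error, with library b at 1.29 times library a (exact 95% interval 1.16 to 1.44). The fitted log2 fold change turned to 0.04 when WT library b was left out and to 0.14 when library a of Opn4-DTA/DTA was.

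Drd5, a D1-class receptor gene, had higher values in both Opn4-DTA/DTA libraries but did not pass. It stood at 72.0 and 50.5 in the WT libraries and at 86.8 and 79.8 in the Opn4-DTA/DTA libraries. The groups did not overlap, and the upper WT value was close to the lower Opn4-DTA/DTA value. The fitted log2 change was 0.46 (SE 0.26, limma adjusted p = 0.9997), and the 95% interval of the fold change ran from 0.904 to 2.09. An annotated antisense gene, Gm26560, overlaps the single Drd5 exon, and whether counting used the strand is not given in the sources used here. Of the other receptor genes, named here after their values were seen, Drd1a (the older symbol of Drd1) had group means of 1218 ± 320 (WT) and 1208 ± 42.4 (Opn4-DTA/DTA). Drd3 had 0 counts in every library, which allows up to 3 counts per library, or 1.64 to 4.59 normalized counts.

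Th, which encodes the rate-limiting enzyme of dopamine synthesis, varied more between the WT libraries than between the groups. The WT libraries a and b stood at 77.7 and 35.2, from 67 and 23 counts. The Opn4-DTA/DTA libraries, at 59.5 and 66.5, lay between these values. WT library a had 2.21 times the Th rate of WT library b (exact 95% interval 1.36 to 3.72). Means were 56.5 ± 30.1 and 63.0 ± 4.95, and the fitted log2 change was 0.26 (SE 0.38, limma adjusted p = 0.9997). The 95% interval of the fold change ran from 0.650 to 2.21. The fitted sign depended on 1 library, with a value of 0.82 when WT library a was left out and -0.30 when library b was.

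Ddc, the decarboxylase gene, followed the same order among libraries as Th in WT. It stood at 34.8 and 16.8 in the WT libraries and at 32.2 and 26.6 in the Opn4-DTA/DTA libraries. The WT values again enclosed both Opn4-DTA/DTA values. These rest on 30, 11, 59 and 26 counts. WT library a had 2.07 times the rate of WT library b (exact 95% interval 1.01 to 4.57). The fitted log2 change was 0.26 (SE 0.41, limma adjusted p = 0.9997). It moved to 0.76 when WT library a was left out and to -0.24 when library b was.

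Gch1, whose enzyme starts the synthesis of the cofactor of tyrosine hydroxylase, had the highest fitted fold change of the 8 tested genes and did not pass. It stood at 27.8 and 15.3 in the WT libraries and at 34.4 and 38.9 in the Opn4-DTA/DTA libraries. The groups did not overlap. Means were 21.6 ± 8.87 and 36.6 ± 3.17, a ratio of 1.70, with a log2 fold change of 0.79 (SE 0.37, unadjusted p = 0.0700, limma adjusted p = 0.9997). The 95% interval of the fold change ran from 0.944 to 3.18. The value rests on 24 and 10 counts in WT and 63 and 38 in Opn4-DTA/DTA. The log2 fold change moved from 0.38 without WT library b to 1.20 without WT library a. Gch1 is the member on chromosome 14 (47153895 to 47189402, mm10), 12.6 Mb from the targeted gene Opn4, and linkage to the altered allele was not tested.

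Slc18a2, the vesicular monoamine transporter gene, had overlapping values with a higher mean in Opn4-DTA/DTA. It stood at 613 and 447 in the WT libraries and at 696 and 530.0 in the Opn4-DTA/DTA libraries. In both groups library a was above library b beyond counting error, by 1.37 times in WT (exact 95% interval 1.19 to 1.59) and 1.31 times in Opn4-DTA/DTA (1.19 to 1.46). The fitted log2 change was 0.21 (SE 0.20, limma adjusted p = 0.9997), and the 95% interval of the fold change ran from 0.845 to 1.59. With WT library a left out it was 0.44, and with library b left out -0.01. An annotated antisense gene, Gm29261, overlaps exons of Slc18a2.

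Slc6a3, the plasma membrane dopamine transporter gene and a defining marker of dopaminergic cells, was at the limit of detection. It had 1 and 1 counts in the WT libraries and 3 and 2 counts in the Opn4-DTA/DTA libraries. Its mean was under the minimum of 10 normalized counts, so it was not tested, and no difference was detectable at this depth.

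Maob, an oxidase gene known from astrocytes of the brain, had overlapping values. It stood at 78.9 and 56.6 in the WT libraries and at 85.2 and 74.7 in the Opn4-DTA/DTA libraries. WT library b was the lowest and the other 3 libraries lay close together. The fitted log2 change was 0.25 (SE 0.26, limma adjusted p = 0.9997), and the 95% interval of the fold change ran from 0.787 to 1.80. Maob lies on the X chromosome (16709281 to 16817366). Of the Opn4-DTA/DTA libraries, library a held 47.0 normalized counts of Xist, the X-inactivation RNA, and library b 96533.

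As a group, the 8 tested genes held none past the limma threshold, where 0.02% of all tested genes passed. The count at an unadjusted p under 0.05 was 1 of 8, Drd4, against 1.66% of all tested genes, or 0.667% counting lower values alone. The authors' deposited table called 1 of the 8, and its adjusted p was 0.9997 for the other 7. Values of the groups did not overlap for 3 of 8 (37.5%), 2 higher and 1 lower in Opn4-DTA/DTA. Among all tested genes the groups did not overlap in 23.5%, with 11.2% higher and 12.3% lower. 6 of the 8 fold changes were above 0, as were 50% of those of all tested genes, and their median was 0.26 on the log2 scale, against 0.00 over all tested genes. Leaving out WT library a moved this median to 0.60, and leaving out library b of WT moved it to 0.00.

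**Figure D2:**
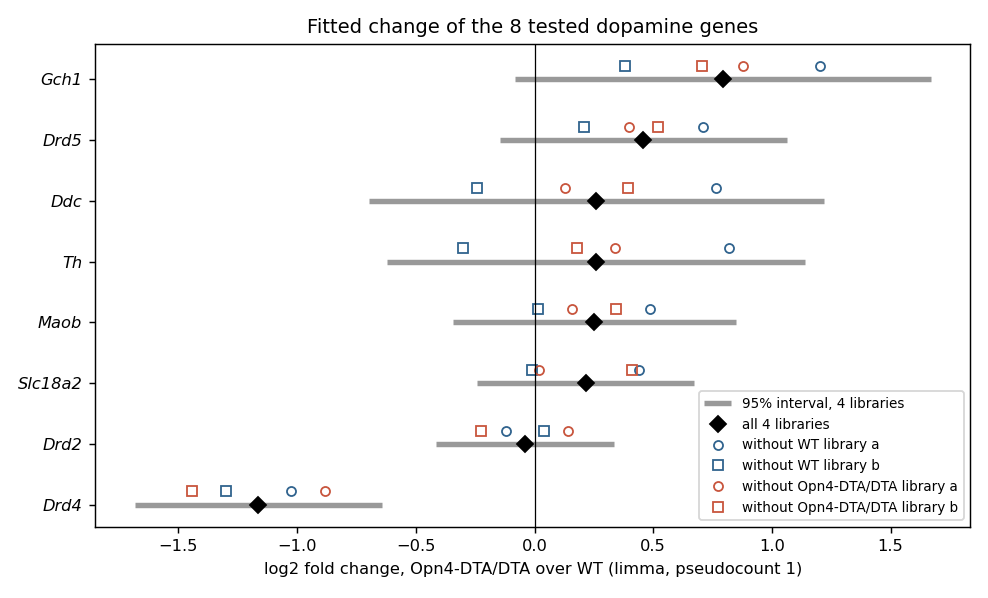
Fitted log2 fold change of Opn4-DTA/DTA over WT (horizontal axis) for the 8 tested genes, with all 4 libraries (diamond), its 95% interval (grey bar) and the value with 1 library left out (open symbols). The interval of Drd4, -1.68 to -0.64, is the only 1 of the 8 that leaves out 0, and the open blue symbols of Th and Ddc fall on opposite sides of 0.

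WT library b gave the lowest of the 4 values for 6 of the 8 tested genes (Drd5, Th, Ddc, Slc18a2, Gch1 and Maob), where 32.4% of all tested genes were lowest in it. Drd4 and Drd2 were lowest in library a of Opn4-DTA/DTA (17.7% of all tested genes), and none of the 8 in WT library a (31.3%) or library b of Opn4-DTA/DTA (18.6%). WT library a was above WT library b for 7 of 8, against 50.3% of all tested genes. The WT libraries were at least 1.5-fold apart for 3 of 8, Th, Ddc and Gch1, against 10.6%. Those 3 genes have low counts, and the interval of their WT ratio included 1 for Gch1 (0.839 to 4.26). Markers of other cells also differed between the WT libraries. In WT libraries a and b the summed markers of pigment epithelium stood at 11351 and 5076 and those of ganglion cells at 63882 and 39585. Not all sets were higher in WT library a, with bipolar markers at 81713 and 92696 and vessel markers at 26684 and 26880. The sum of 15 amacrine markers was 90545 and 79481, a ratio of 1.14. The part of these markers in the values of the dopamine genes was not tested. Per 100000 summed amacrine marker counts, Th stood at 85.9 and 44.3 in the WT libraries and at 64.9 and 76.4 in the Opn4-DTA/DTA libraries. A sum over amacrine cells in general does not measure the sparse dopaminergic class.

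**Figure D3:**
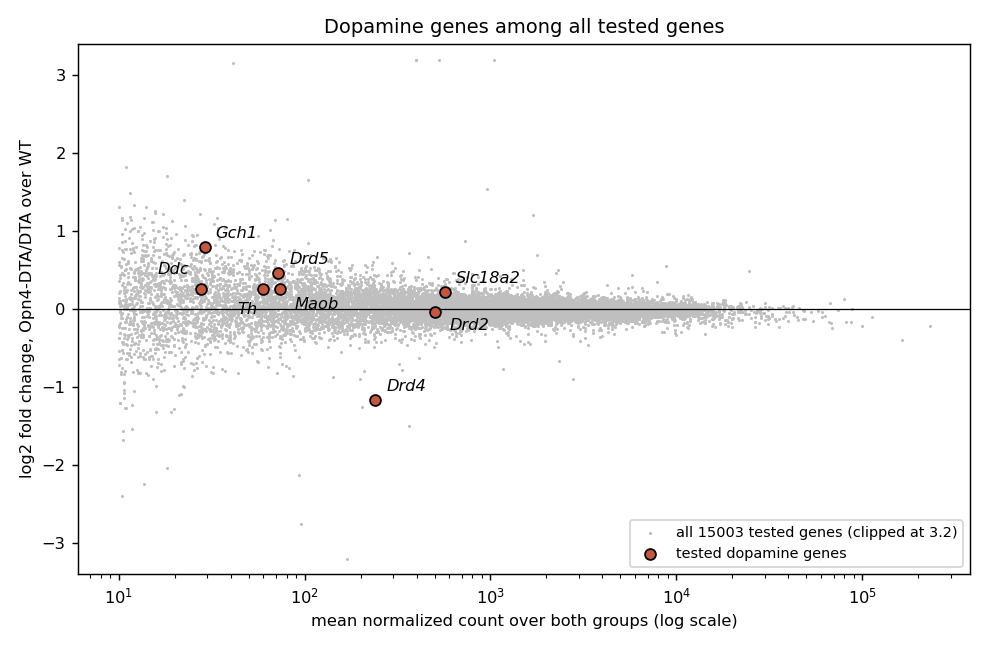
Log2 fold change of Opn4-DTA/DTA over WT against the mean normalized count (log axis) for all 15003 tested genes (grey, values beyond the axis drawn at its edge) and the 8 tested dopamine genes (red). Drd4, at -1.16, lies below most genes of similar level, and the others, from -0.04 for Drd2 to 0.79 for Gch1, lie within the grey cloud.

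Levels of the 9 genes were compared per length, as normalized counts per kb of the summed exons annotated in GENCODE M21. These exons sum to 3381 bases for Drd4 and 3152 for Drd5, more than their deposited spans of 2996 and 2802. Values per kb of Drd4 and Drd5 may thus be too low, and their ranks against other genes are uncertain. Drd2 was the highest in every library, at 200 ± 15.8 in WT against 195 ± 35.0 in Opn4-DTA/DTA on this scale. Slc18a2 came next, at 101 ± 22.4 and 117 ± 22.5. Drd4 stood at 97.9 ± 13 in WT, within the range of Slc18a2 there, and at 44.2 ± 12 in Opn4-DTA/DTA, below both Slc18a2 values. Maob (24.3 ± 5.65 in WT), Th (23.9 ± 12.7) and Drd5 (19.4 ± 4.81) did not differ beyond their spread. Ddc at 5.79 ± 2.85 and Gch1 at 3.45 ± 1.42 also overlapped in WT. Slc6a3 was the lowest, at 0.592 per kb or less in each library. The vesicular transporter was thus above the 3 synthesis enzymes in each of the 4 libraries on this scale, with Slc18a2 at 85.5 per kb or more and Th at 32.9 or less.

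**Figure D4:**
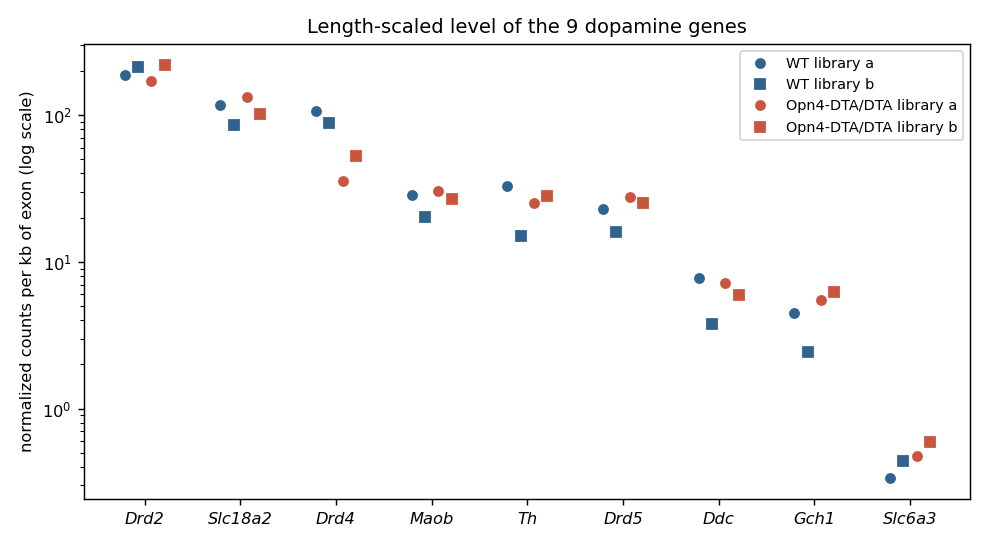
Normalized counts per kb of exon (vertical log axis) of the 9 genes in each library, ordered by their mean, with WT in blue and Opn4-DTA/DTA in red. Drd2 and Slc18a2 lead, and Slc6a3 is lowest at 0.336 to 0.592. Drd4 is the gene whose red symbols (35.7 and 52.7) lie apart from and below the blue ones (107 and 88.7). Lengths used for Drd4 and Drd5 exceed their deposited spans.

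Genes whose values over the 4 libraries ran most like those of Drd4 were sought among the 12448 whose mean reached 100 normalized counts. Likeness was the root mean square distance between log2 values centred on the mean of each gene, a description over 4 libraries. Nearest was Rdh8, a retinol dehydrogenase gene of photoreceptor outer segments, at a distance of 0.19. Rdh8 stood at 3639 and 3622 in the WT libraries and at 1778 and 2140 in the Opn4-DTA/DTA libraries. Next came Accn3, an acid-sensing ion channel gene (distance 0.22), A930003O13Rik (0.24), the gustducin alpha gene Gnat3 (0.25) and the growth factor gene Gdf10 (0.28). Accn3 stood at 1485 and 1460 in WT and at 728 and 1021 in Opn4-DTA/DTA. Of these 5 genes 3 lie on chromosome 5, between 17962570 and 24417834 (mm10). The share of the searched genes that lie there was not counted, and a cause of this shared position was not tested. Gdf10 (33923587 to 33935282) lies on chromosome 14 near Opn4 (34592343 to 34600142), whose alleles differ by design between the groups.

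The genes nearest to Th were sought in the same way, and members with a mean under 100 normalized counts (Drd5, Ddc, Gch1, Maob and Slc6a3) were not among those searched. Cd248, the endosialin gene of stromal cells, was nearest at a distance of 0.03, with 231 and 110 normalized counts in the WT libraries and 176 and 198 in the Opn4-DTA/DTA libraries. Fcer1g, an Fc receptor subunit gene of immune cells (0.06), the amine oxidase gene Aoc3 (0.08), the matrix gene Aspn (0.08) and the ribosomal protein gene Rpl41 (0.08) followed. Like Th, all 5 were highest in WT library a and lowest in WT library b, an order that choosing genes by their likeness to Th favours. Counts of Rpl41 are uncertain because near-identical copies exist.

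A wider set of 92 genes of dopamine metabolism, signalling and cell identity held 91 in the table and 76 tested. None passed in limma, against 0.02% of all tested genes, and 1 of 76 (1.32%) had an unadjusted p under 0.05 (Aldh1a1), against 1.66%. The groups did not overlap for 13 (17.1%), 8 higher and 5 lower, against 23.5% of all tested genes, 11.2% higher and 12.3% lower. The median log2 fold change was 0.01. Many of these genes also have roles outside dopamine signalling. Without WT library a 1 of the 76 passed, Calb2, where 2.04% of all tested genes did. Its log2 fold change was 0.45 there, 0.11 with all libraries and -0.24 with WT library b left out. Without WT library b 3 passed, Aldh1a1 (0.47), Clic6 (-0.90) and Sncg (-0.50), where 1.58% of all tested genes did. With WT library a left out instead, Aldh1a1 was at 0.29, whereas Clic6 and Sncg turned to 0.26 and 0.27, none of them past the threshold. The direction of Calb2, Clic6 and Sncg thus depended on which WT library was kept.

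Of 6 tested genes of biopterin synthesis and recycling 3 were above 0, with a median of 0.01. Qdpr, which regenerates tetrahydrobiopterin, averaged 2394 ± 23.1 in WT against 2582 ± 18.8 in Opn4-DTA/DTA. Pts, the second enzyme of the cofactor pathway, stood at 1563 ± 177 and 1612 ± 43.0, and Pcbd2 at 138 ± 36.7 and 117 ± 9.95. Among 9 genes of dopamine breakdown and conversion 5 were above 0, with a median of 0.04. Aldh1a1, an aldehyde dehydrogenase that also makes retinoic acid, stood at 1218 and 1376 in the WT libraries and at 1619 and 1751 in the Opn4-DTA/DTA libraries. Its fitted log2 change was 0.38 (SE 0.11, unadjusted p = 0.0102, limma adjusted p = 0.9997). Maoa, the other monoamine oxidase gene, stood at 1293 ± 223 and 1451 ± 5.45, and Aldh3a2 at 2443 ± 87.7 and 2513 ± 26.9.

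Among 24 tested genes of other receptors and coupled signalling 11 were above 0 and the median was -0.01. Gnas, the stimulatory G protein subunit, averaged 34943 ± 4661 in WT against 35125 ± 934 in Opn4-DTA/DTA. Gnb5 and Rgs9, which speed the shut-off of G proteins in photoreceptors, stood at 10110 ± 171 and 9213 ± 559, and at 33628 ± 2856 and 31529 ± 778. Ncs1, a calcium sensor that binds Drd2, stood at 3279 ± 112 and 3479 ± 64.3. Of 14 tested genes of retinal outputs of dopamine 8 were above 0, with a median of 0.01. The connexin gene Gjc1 stood at 660 ± 19.1 and 736 ± 6.16. Atp1b2, a sodium pump subunit gene, stood at 51315 ± 3077 and 46915 ± 82.2.

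Among 15 tested transcription factor and survival genes of dopaminergic neurons 8 were above 0, with a median of 0.01. Nr4a2, a nuclear receptor required by midbrain dopamine neurons, averaged 525 ± 39.5 in WT against 598 ± 14.4 in Opn4-DTA/DTA. En2 stood at 26.6 ± 11.6 and 16.9 ± 0.777, and Otx2 at 16608 ± 504 and 15297 ± 204. Of 8 tested other monoamine transporters and enzymes 4 were above 0, with a median of -0.02. Slc7a5 and Slc3a2, which together form a carrier of large neutral amino acids, stood at 5548 ± 1319 and 6426 ± 1433, and at 4855 ± 1197 and 4585 ± 496. Slc6a2, the noradrenaline transporter, stood at 533 ± 61.7 and 474 ± 36.3.

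**Figure D5:**
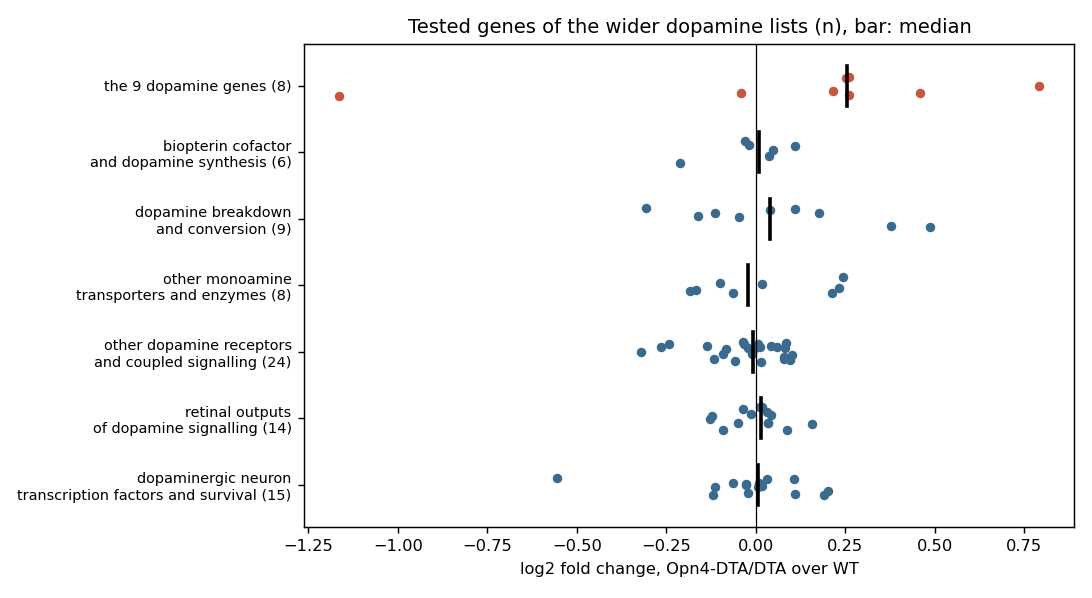
Log2 fold change of Opn4-DTA/DTA over WT (horizontal axis) of each tested gene in the 9 dopamine genes (red, 8 tested) and in 6 wider lists (blue), with the median as a black bar and the number tested in brackets. Medians of the wider lists lie between -0.02 and 0.04, and Drd4 is the lowest point at -1.16.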

How the data were processed

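Per the labels' protocols, directional libraries of polyadenylated RNA from retina were sequenced on an Illumina HiSeq2500. The submitters' processing notes list FastQC, STAR, HTSeq, DESeq2 and mm10 and give no versions. Per the file headers and the values, the deposited signal is a group mean over 2 libraries, each gene count having been scaled by its library's size factor. The authors also deposited log2 fold changes and standard errors (for Drd4 the former is smaller in size than the log2 ratio of its deposited means), the test statistic as a score, and p-values, raw and adjusted.

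From each group mean 1 pair of whole counts was solved (relative tolerance 3e-13), for 17757 WT means and 18327 Opn4-DTA/DTA means, with none left unsolved or ambiguous. The procedure was checked on simulated pairs. The genes whose mean reached 10 normalized counts were tested with limma 3.58.1 in R 4.3.3 on log2(normalized count + 1), with a variance trend, no covariates and Benjamini-Hochberg adjustment over all of them. The fit was also run on simulated counts with the same dispersion for all genes. This leaves out the larger spread of genes such as Th, so it does not show how the fit performs on them. The pseudocount makes fold changes of low genes smaller in size than they would be without it. Fitted changes, being means of logs, are not always smaller than the ratio of group means, as for Th. Exact intervals are conditional binomial (scipy 1.17.1) and, like floors of 3 counts, cover counting error only.

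The 9 genes and all lists were chosen with earlier results of these data known. The wider lists name the 2 tested genes with the lowest p and the 2 with the highest mean, and the 5 genes most like Drd4 and Th over the libraries are named. Some genes that this rule names are not reported here. Alternatives were other pseudocounts (0.5 and 5), filters (none, and a mean of 50), scalings, variance models and leaving out each library. Gene lengths are the exons of GENCODE M21, and promoters come from RefSeq (GRCm38.p6). 1 emptied line of the table was not analysed here.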

Additional observations from a re-analysis of the deposited data

How the results depend on the processing

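With every library kept, the 8 other settings of pseudocount, filter, scaling and variance model left no tested dopamine gene past the threshold and turned no sign. A minimum mean of 50 left Ddc and Gch1 untested. The log2 fold change of Drd4 ranged from -1.23 to -1.13 in these settings, with a limma adjusted p of 0.696 or higher. With all libraries 3 genes passed, and 0 did in limma without a trend, where 483 genes had an unadjusted p under 0.05 against 249 with it. Limma voom called 3. With 1 library left out, from 10 to 306 genes passed (306 and 237 with WT library a or b left out, 10 and 19 with library a or b of Opn4-DTA/DTA left out), from 0 to 3 of the wider lists did, and the median of the 8 genes ranged from 0.00 to 0.60 (0.0014 at its lowest). Leave-one-out log2 fold changes ranged from -1.44 to -0.88 for Drd4 (-1.03 and -1.30 with WT library a or b left out), -0.22 to 0.14 for Drd2 (0.0391 without WT library b), 0.21 to 0.71 for Drd5, -0.30 to 0.82 for Th, -0.24 to 0.76 for Ddc, -0.0125 to 0.44 for Slc18a2, 0.38 to 1.20 for Gch1 and 0.02 to 0.49 for Maob. The cause of these shifts was not tested, and a group left with 1 library is assumed to vary like the other. Depth limits Slc6a3, Ddc and Gch1 most, at 1 to 63 counts per library. No paired analysis was possible because the labels give the groups no shared replicate numbers and the recovered libraries carry none.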

Other observations

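Transporters and enzymes of the other monoamines gave values unlike those of the dopamine transporter, and are named here after their values were seen. The noradrenaline transporter gene Slc6a2 averaged 84.8 ± 9.81 normalized counts per kb in WT and 75.3 ± 5.78 in Opn4-DTA/DTA, against 0.389 ± 0.0757 and 0.533 ± 0.0836 for the dopamine transporter gene Slc6a3. The serotonin transporter gene Slc6a4 stood at 10.7 ± 2.24 and 13 ± 4.35 on the same scale. Tph1, an enzyme of serotonin and melatonin synthesis, stood at 31.3 ± 8.35 and 36.2 ± 2.03, above Tph2 at 6.49 ± 1.66 and 5.95 ± 0.635. Among dopamine receptor genes Drd1a was the most abundant per length, at 336 ± 88.2 and 333 ± 11.7. The cells that gave these transcripts were not identified in whole retina.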
